A study of Mus musculus with 4 samples.

Results

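The 10 genes described here encode transcription factors of the vascular endothelium, the cells that line blood vessels, and were followed through single cells of mouse kidney glomeruli, the capillary tufts that filter blood. They are Meox1, Meox2 and Hlx, which carry a homeobox domain, Gata5 and Gata2, which carry GATA zinc fingers, Sox17 and Sox18 of the SOXF group, the ETS factor Erg, the T-box factor Tbx3 and the orphan nuclear receptor Nr2f2. The members are the 10 rows with these symbols among the 52636 genes of the deposited matrices, and they were selected on results of these data, their levels in endothelial groups and their aged against young differences. Their levels and age differences are therefore given as a description, with no p-value. Glomeruli of young mice and of aged mice, with no treatment, were caught on magnetic beads after perfusion of the animal and were digested to single cells, and the series names ageing and senescence as its subject. There were 2 young and 2 aged libraries. The labels give no age in months, strain, sex or number of mice behind a library, so the spread between libraries of a group may be technical in part.

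Transcription factors of this kind bind DNA at short motifs and set which genes a cell uses. ERG is active in endothelium throughout the body and keeps up junction and anticoagulant genes. SOX17 and SOX18 act in the formation of vessels, SOX17 above all in arteries and SOX18 in lymphatic vessels, and GATA2 is used by blood stem cells, basophils and endothelium. NR2F2, also called COUP-TFII, is known for the identity of veins and is used by many mesenchymal cells. TBX3 and GATA5 mark glomerular endothelium among kidney vessels, and TBX3 is also known in mesangial cells, the pericyte-like cells between the capillaries.

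The 4 libraries held 33323 barcodes with 124600182 unique molecular identifiers (UMIs, 1 for each captured RNA molecule), of which 28000 barcodes were kept as cells. Among them 13930 were endothelial by marker genes, with 2388 and 1367 in young replicates 1 and 2 and 5927 and 4248 in aged replicates 1 and 2. Of their 8 endothelial markers 4 overlapped between the ages. Pecam1, an adhesion molecule of endothelium, had 908 and 1031 CPM (UMIs of the gene per 1000000 UMIs of the cells) in young and 1065 and 986 CPM in aged libraries. Cdh5 and Eng were higher in both aged libraries. The VEGF receptor genes Kdr (2126 and 2498 against 1539 and 1467 CPM) and Flt1 (1377 and 1472 against 1178 and 1085 CPM) were lower in both. Young replicate 2 stood apart, since 62.3% of its kept cells were in mixed or unnamed clusters, against 4.44% to 5.44% in the others, and its kept cells had a median of 1258 UMIs against 2715 to 3730. Pairs of libraries shared 5 to 21 kept barcodes. Podocyte markers in the endothelial cells summed to 3.59% to 5.90% of their level in podocytes, highest in young replicate 2, with none of the 8 markers at 0. Mesangial markers summed to 0.308% and 0.610% of their own level in young libraries and 0.900% and 0.989% in aged ones, and macrophage markers to 0.0141% and 0.0375% against 0.1004% and 0.119%. Parietal markers summed to 8.24% to 15.1% of their own level, highest in aged replicate 1, with 1 to 4 of the 8 at 0. The part of other cells' RNA in the results was not tested.

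Levels below are CPM over the summed cells of a group. Fold changes come from a model of all genes with a further scaling between libraries (TMM), which put the aged over young difference in endothelium 0.154 higher on the log2 scale than plain CPM does. Levels are compared within a gene only. Endothelial cells were divided into sub-clusters, made without the 10 members. Glomerular capillary cells, known by markers such as Ehd3, numbered 10731. A group of 1158 cells carried Tspan8, Fbln2 and Thbs2. Another 1503 cells were led by Olfm2, Esm1 and Igfbp3, 164 by Dlk1 and Lyve1, and 138 were arteriolar. The arteriolar group had 12 and 15 cells in the young libraries, below the 20 set as a minimum, so it has no test of age.

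Start regions are shown for Gata5 and Hlx, whose endothelial levels moved in opposite directions with age, and for the Erg start that holds matches to most of the motifs searched. RefSeq windows (GRCm38.p6) matched 6 of the 10 members, Meox2, Gata5, Gata2, Hlx, Nr2f2 and Erg, in 9 windows. Bases upstream of the annotated starts are given 5′ to 3′ on the gene's strand, with motif matches in capitals.
Gata5 (chr2:180334700-180334929, minus strand): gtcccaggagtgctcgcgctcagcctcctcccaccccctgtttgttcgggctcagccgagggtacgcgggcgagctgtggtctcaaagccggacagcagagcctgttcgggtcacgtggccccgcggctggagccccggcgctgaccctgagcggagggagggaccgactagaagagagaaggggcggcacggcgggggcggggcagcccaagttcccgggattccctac
Hlx (chr1:184732620-184732743, minus strand): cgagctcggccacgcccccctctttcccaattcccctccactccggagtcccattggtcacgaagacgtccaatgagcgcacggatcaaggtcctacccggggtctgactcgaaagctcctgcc
Erg (chr16:95459349-95459598, minus strand): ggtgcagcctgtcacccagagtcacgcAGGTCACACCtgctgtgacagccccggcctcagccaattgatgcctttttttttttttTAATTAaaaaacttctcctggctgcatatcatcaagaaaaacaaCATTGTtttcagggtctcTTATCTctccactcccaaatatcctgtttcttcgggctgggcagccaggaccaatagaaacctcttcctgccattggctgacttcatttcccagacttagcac
The motifs stand for the families of the members and were searched on both strands: AGATAA for GATA factors, CCGGAA for ETS factors, ACAATG for SOX factors, TAATTA for homeobox factors, GGTGTGA for T-box factors and AGGTCA for nuclear receptors. The stretches of Gata5 and Hlx held none of them. That of Erg held 5, those for GATA, SOX, homeobox, T-box and nuclear receptor factors, of which the last 2 overlap. It is 1 of 3 Erg starts and was picked for its matches. The upstream bases at 95586594 to 95586843 held 1 match, to TAATTA, and those at 95530366 to 95530615 held 0. Among all 32851 windows, AGATAA was in 11.2%, CCGGAA in 14.9%, ACAATG in 12.6%, TAATTA in 5.29%, GGTGTGA in 3.98% and AGGTCA in 16.3%. These shares are over whole windows, which also hold bases after the start. The stretches shown are shorter, with 230 bases for Gata5, 124 for Hlx and 250 for Erg. A match is a string of letters and not a measured binding site. The base composition differed as well, with 70.4% G or C in the Gata5 stretch, 62.9% in that of Hlx and 47.2% in that of Erg, against a median of 52.4% over the 250 upstream bases of all windows.

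Among cells with a named type, most members were found almost wholly in endothelium. Of the UMIs in cells with a named type, endothelial cells held 94.3% to 97.6% for Meox1 over the 4 libraries, 97.2% to 100% for Gata5, 97.0% to 99.2% for Sox17, 96.1% to 98.7% for Sox18 and 95.3% to 97.9% for Erg. The share was 86.8% to 95.3% for Hlx and 86.5% to 92.5% for Gata2. Tbx3 had 73.7% to 81.5% there, with most of the rest in mesangial cells. Nr2f2 was the exception, with 9.54% and 9.86% of its UMIs in endothelium in young libraries and 26.0% and 19.6% in aged ones. These shares also follow how many cells of each type a library held. They leave out mixed and unnamed cells and barcodes that were not kept. Named cells held 322 of the 590 Meox1 UMIs of all barcodes in young replicate 2 and 424 of 509 in aged replicate 2. For Erg these were 637 of 1105 and 2275 of 2719.

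**Figure D1:**
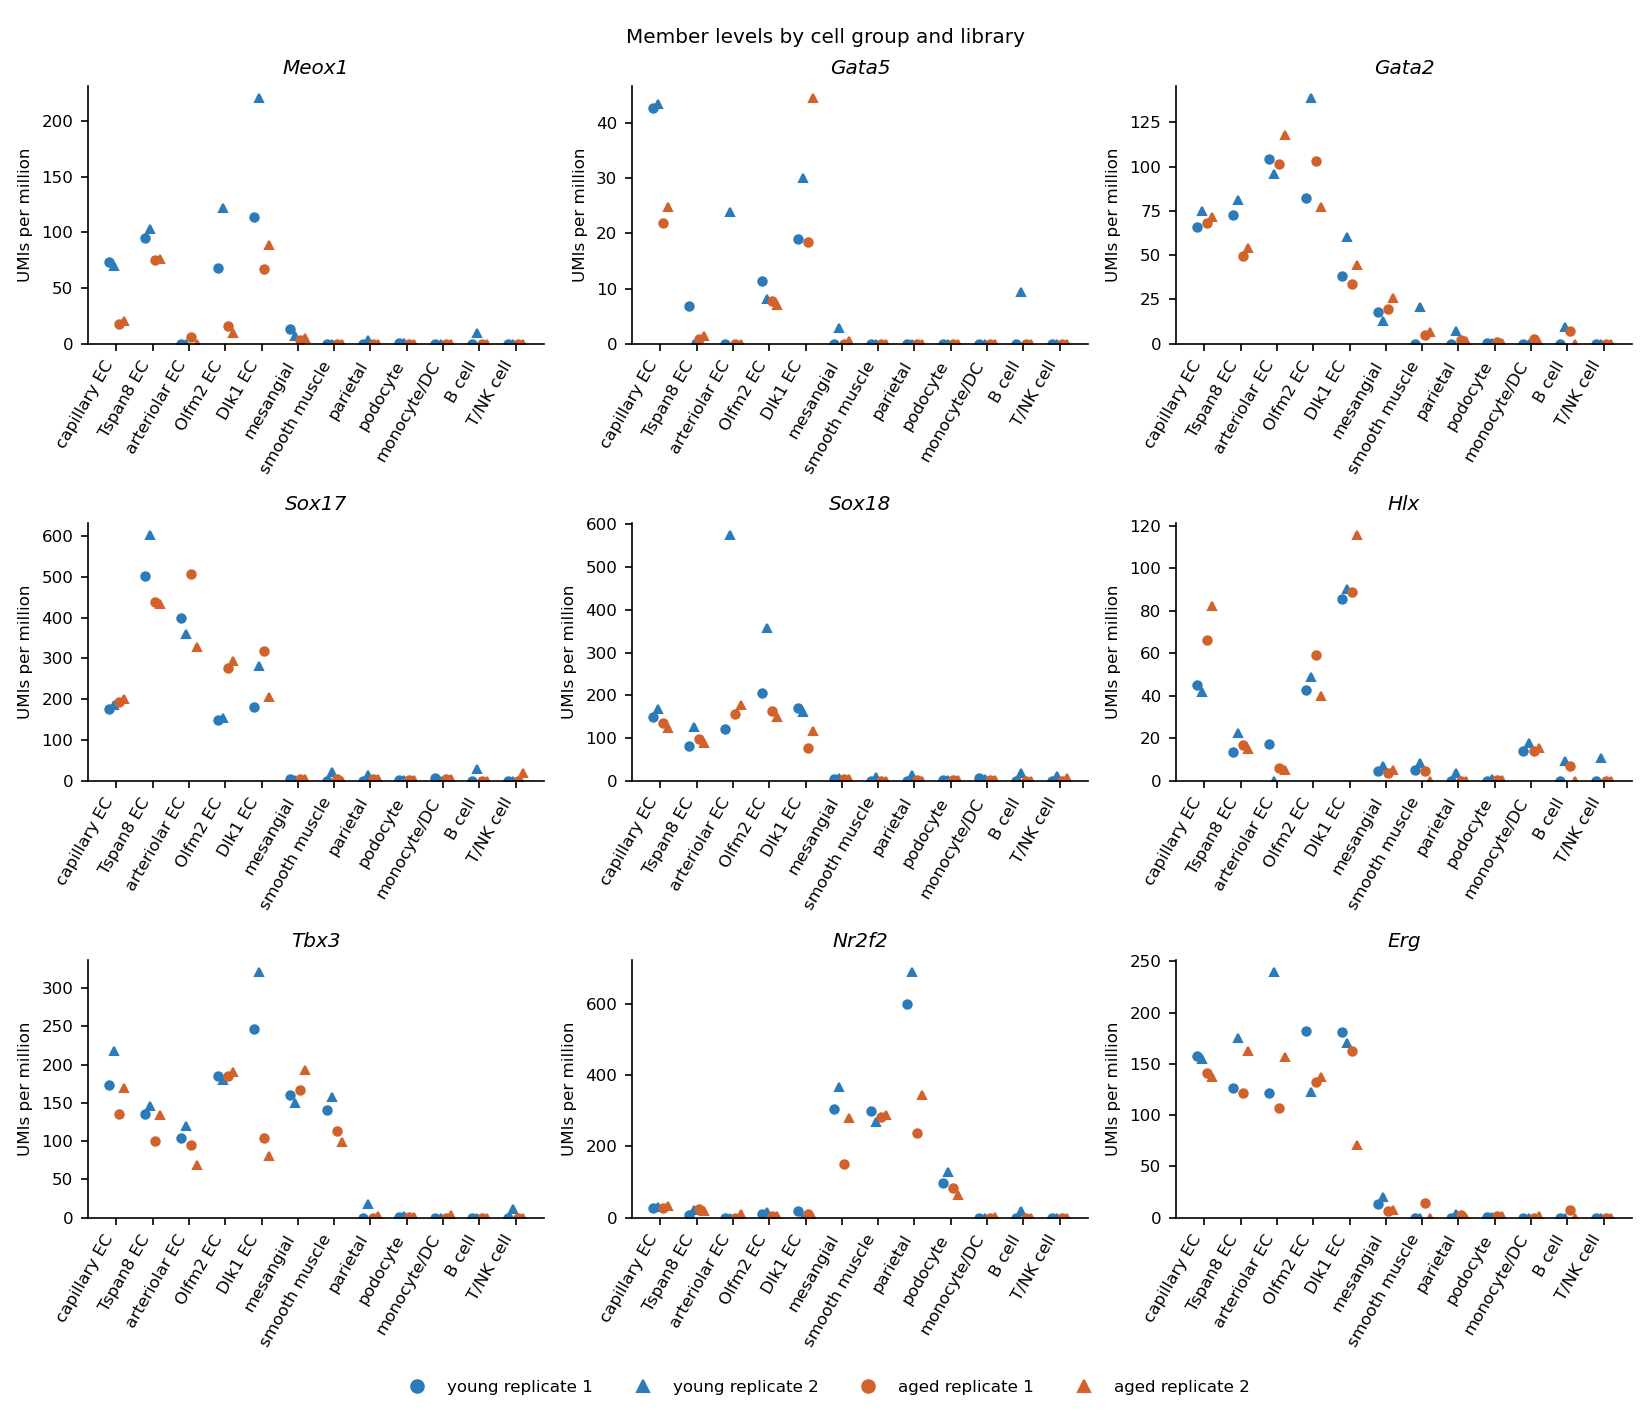
Level of each of 9 members (vertical axis, CPM) in 12 cell groups (horizontal axis; EC is endothelial cell), with 1 point per library, blue for young and orange for aged. Sox17 is highest in the Tspan8 and arteriolar groups, Nr2f2 in parietal, mesangial and smooth muscle cells, and Tbx3 is shared by endothelium, mesangium and smooth muscle; arteriolar points of the young libraries rest on 12 and 15 cells.

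Meox1 encodes a homeobox factor known from the development of the body segments. The gene (ENSMUSG00000001493) lies on chromosome 11 from 101877510 to 101894374 on the minus strand, with 3 exons, in GENCODE vM21 for GRCm38. Its level in endothelial cells was 75.4 and 78.0 CPM in the young libraries and 22.8 and 24.98 CPM in the aged ones. Both aged libraries lay far below both young ones.
The means were 76.7 ± 1.84 CPM (SD, n = 2) and 23.9 ± 1.58 CPM (SD, n = 2), and the fitted log2 fold change of aged over young was -1.56 (SE 0.145). The share of endothelial cells with a Meox1 UMI was 16.04% and 16.8% in young libraries and 4.96% and 6.80% in aged ones, at median depths of 2313, 2643, 2334 and 3218 UMIs per cell. After every cell was thinned to 1000 UMIs the shares were 7.50%, 7.20%, 2.22% and 2.44%, over 2360, 1209, 5803 and 4229 cells. In podocytes, where the gene was at most 0.622 CPM, 0% to 0.345% of cells had a Meox1 UMI at median depths of 4198 to 7686 UMIs, so the endothelial shares are far above that background.

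The Meox1 difference was uneven between endothelial groups. In glomerular capillary cells the level was 73.7 and 69.9 CPM in young and 17.3 and 20.5 CPM in aged libraries, a log2 fold change of -1.82 (SE 0.160). In the Olfm2 group it was 68.2 and 122 CPM against 16.1 and 9.54 CPM, a log2 fold change of -2.54 (SE 0.399), from 24, 15, 25 and 11 UMIs. That call held under 10 of the 13 alternatives that gave a value, over a range of -3.01 to -1.38. It was lost with mixed cells kept and at clustering resolution 2, DESeq2 gave no adjusted p, and with doublets kept the gene did not pass the filter on low counts. In the Tspan8 group it was 94.6 and 103 CPM against 75.1 and 76.2 CPM, a log2 fold change of -0.27 (SE 0.223). The aged Tspan8 cells thus kept most of the young level, while the aged capillary and Olfm2 cells did not. The age effect in the Tspan8 group minus that in the capillary group, fitted with the library as a block, was 1.58 (SE 0.221) on the log2 scale. Meox1 was the 1 member of the 9 in that fit among the 153 genes past the threshold, of 10474 tested (1.46%). The Tspan8 group was taken for that fit after the data were seen, so the value is a description. Arteriolar cells held 1 Meox1 UMI in 471177 (2.12 CPM, exact 95% Poisson interval 0.0537 to 11.8, counting error only), below the pooled 82.1 CPM of the Tspan8 group (73.1 to 91.9) and 31.9 CPM of the capillary group (30.0 to 33.9). Arteriolar cells taken by UMI gates on single cells instead gave 39.8 CPM, so the low arteriolar level depends on how these cells are chosen.

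Capillary sub-clusters were filled unevenly by age, 1 of them with 13 and 9 young and 1435 and 234 aged cells, so Meox1 was also read within each. Of the 9 endothelial sub-clusters with at least 20 cells in every library, both aged libraries lay below both young ones in 8. In the largest of them, a capillary sub-cluster, the level was 103 and 93.0 CPM in young and 20.8 and 21.2 CPM in aged libraries. The exception was a capillary sub-cluster led by Calca and Wnt2, with 51.9 and 83.9 CPM against 31.4 and 57.1 CPM. In the Dlk1 and Lyve1 group the levels were 114 and 221 CPM against 67.4 and 89.0 CPM, from 12, 22, 22 and 10 UMIs. Aged libraries lay below young in 5 of these sub-clusters for Gata5, 5 for Sox18 and 4 for Erg, with none above, and above in 4 for Hlx, with none below. Tbx3 was below in 5 and above in 1, Sox17 below in 2 and above in 2, Gata2 below in 1 and above in 2, and Nr2f2 below in 1 and above in 1. All these counts, that of Meox1 included, use plain CPM. Plain CPM puts the aged over young difference lower than the fit, by 0.133 on the log2 scale in capillary cells and 0.244 in the Olfm2 group. The sub-clusters share the same 4 libraries and the share over all genes was not computed, so the counts are a description only.

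**Figure D2:**
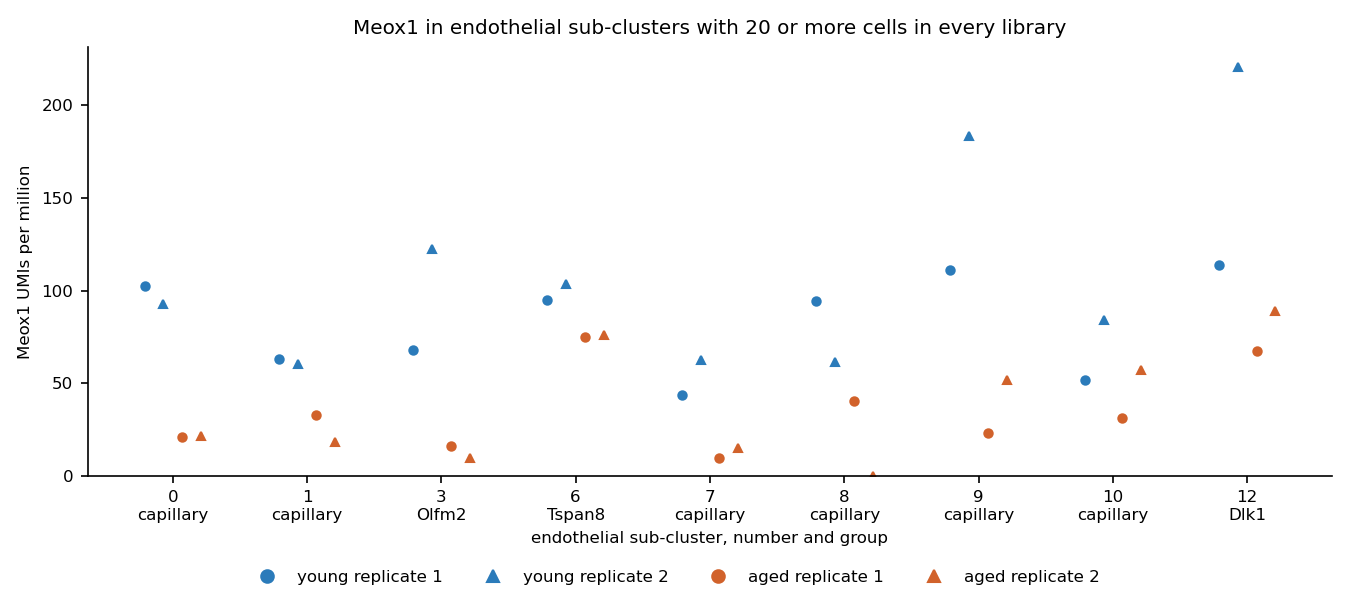
Meox1 level (vertical axis, CPM) in the 9 endothelial sub-clusters with 20 or more cells in every library (horizontal axis, number and group), with 1 point per library. Aged libraries lie below young ones in 8 of the 9, and the gap is small in the Tspan8 sub-cluster, at 75.1 and 76.2 against 94.6 and 103.

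Meox2 (ENSMUSG00000036144), the close relative of Meox1 and known in other tissues as a factor of endothelium and muscle, was nearly absent. It lies on chromosome 12 from 37108540 to 37179534 on the plus strand, with 3 exons. All barcodes of the 4 libraries held 1, 1, 1 and 3 UMIs of it, and endothelial cells held 1 in all. It did not pass the filter on low counts, and a fold change from so few UMIs is not given.

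Hlx (ENSMUSG00000039377), a diverged homeobox factor known from gut, liver and blood cells, lies on chromosome 1 from 184727140 to 184732619 on the minus strand, with 4 exons. Its endothelial level was 42.2 and 40.3 CPM in young and 61.4 and 72.5 CPM in aged libraries, the reverse order of Meox1. The means were 41.2 ± 1.34 CPM (SD, n = 2) and 66.9 ± 7.79 CPM (SD, n = 2), with a log2 fold change of 0.82 (SE 0.150). Capillary cells had 45.1 and 41.7 CPM against 66.4 and 82.2 CPM (log2 fold change 0.87, SE 0.161). The small Dlk1 group was higher, with 85.5 and 90.2 CPM in young and 88.8 and 116 CPM in aged libraries, from 60 UMIs in all. The Tspan8 group was low at every age, with 13.5 and 22.5 CPM against 17.0 and 15.1 CPM, and arteriolar cells held 3 UMIs in all. The gates on single cells put arteriolar cells at 26.7 CPM in place of 6.37. Outside endothelium, neutrophils of the aged libraries had 55.4 and 41.5 CPM, from 5 and 2 UMIs, monocytes and dendritic cells had 13.8 to 17.8 CPM, and podocytes had a UMI in at most 0.173% of cells. Thinned to 1000 UMIs, endothelial cells had a Hlx UMI in 4.19% and 3.89% of cells in young and 5.60% and 6.76% in aged libraries, against 9.55%, 10.1%, 13.2% and 20.0% before thinning.

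Gata5 (ENSMUSG00000015627), a GATA factor of heart and endocardium, lies on chromosome 2 from 180325133 to 180334699 on the minus strand, with 6 exons. Its endothelial level was 36.6 and 35.2 CPM in young and 18.3 and 21.0 CPM in aged libraries. Every aged value was below every young one. The means were 35.9 ± 0.994 CPM (SD, n = 2) and 19.7 ± 1.97 CPM (SD, n = 2), with a log2 fold change of -0.75 (SE 0.161). Capillary cells carried nearly all of it, with 42.7 and 43.4 CPM against 21.9 and 24.7 CPM (log2 fold change -0.78, SE 0.160). The Tspan8 group held 7 Gata5 UMIs and the arteriolar group 1, and podocytes held none. In the Olfm2 group the level was 11.4 and 8.15 CPM in young and 7.74 and 6.94 CPM in aged libraries, from 1 to 12 UMIs a library. Among capillary sub-clusters with at least 20 cells in every library it went from 24.3 to 103 CPM in young replicate 1.

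Gata2 (ENSMUSG00000015053), the other GATA factor, lies on chromosome 6 from 88193891 to 88207032 on the plus strand, with up to 6 exons. Endothelial cells had 66.9 and 79.0 CPM in young and 69.2 and 70.1 CPM in aged libraries, so the groups overlapped (log2 fold change 0.06, SE 0.139). Over the endothelial groups with at least 20 cells in every library its level went from 33.7 CPM in the Dlk1 group of aged replicate 1 to 139 CPM in the Olfm2 group of young replicate 2. In the Tspan8 group it was 72.7 and 80.9 CPM in young and 49.3 and 53.9 CPM in aged libraries, with a log2 fold change of -0.45 (SE 0.242) that did not pass the threshold. Mesangial cells had 12.6 to 25.8 CPM.

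Sox17 (ENSMUSG00000025902) lies on chromosome 1 from 4490931 to 4497354 on the minus strand, with up to 5 exons. Over all endothelium it had 208 and 242 CPM in young and 228 and 228 CPM in aged libraries (log2 fold change 0.15, SE 0.147). The level followed the kind of endothelium. The Tspan8 group had 502 and 602 CPM in young and 439 and 433 CPM in aged libraries, and arteriolar cells had 399, 359, 507 and 328 CPM, against 175, 186, 194 and 199 CPM in capillary cells. The capillary range lay below every Tspan8 and arteriolar value. In the Olfm2 group Sox17 was 148 and 155 CPM in young and 277 and 292 CPM in aged libraries, with a log2 fold change of 1.04 (SE 0.242), from 52, 19, 430 and 337 UMIs. This call was lost under 7 of 14 alternatives, among them without young replicate 1 and without either aged library, over a range of 0.45 to 1.14. In the Tspan8 group both aged libraries lay below both young ones, with a log2 fold change of -0.22 (SE 0.165) that did not pass the threshold.

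Sox18 (ENSMUSG00000046470) lies on chromosome 2 from 181669836 to 181671640 on the minus strand, with 2 exons. Its endothelial level was 145 and 171 CPM in young and 133 and 121 CPM in aged libraries. The groups did not overlap, but the log2 fold change of -0.19 (SE 0.142) did not pass the threshold. Unlike Sox17 it was not high in the Tspan8 group, with 81.1, 126, 96.9 and 86.9 CPM, and among groups with at least 20 cells in every library its mean was highest in the Olfm2 group, with 204 and 359 CPM in young and 163 and 150.04 CPM in aged libraries. Mesangial cells had 3.80 to 6.79 CPM and podocytes 0.406 to 1.25 CPM.

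Erg (ENSMUSG00000040732) lies on chromosome 16 from 95359169 to 95586593 on the minus strand and spans 227425 bases, with up to 11 exons. Its endothelial level was 156 and 155 CPM in young and 139 and 139 CPM in aged libraries, with a log2 fold change of -0.04 (SE 0.141) after the scaling named above. Plain CPM was thus lower in both aged libraries by a margin about as large as that scaling. Erg was the most even member over endothelium. Pooled over libraries it was 143 CPM in capillary cells (139.3 to 147.5), 144 CPM in the Tspan8 group (132 to 157) and 142 CPM in arteriolar cells (110 to 181), as exact 95% Poisson intervals for counting error. Mesangial cells had 12.9 and 20.4 CPM in young and 6.08 and 7.52 CPM in aged libraries, with a log2 fold change of -1.11 (SE 0.364) that did not pass the threshold. The mesangial cluster with most young cells held 372 and 233 of them and 24 and 15 aged ones before mixed cells were left out. Endothelial markers scored second in that cluster, and the part of endothelial RNA in these values was not tested.

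Tbx3 (ENSMUSG00000018604) lies on chromosome 5 from 119670669 to 119684724 on the plus strand, with up to 8 exons. Endothelial cells had 169 and 206 CPM in young and 135 and 165 CPM in aged libraries (log2 fold change -0.19, SE 0.150). Mesangial cells matched them, with 161 and 149 CPM in young and 167 and 193 CPM in aged libraries (log2 fold change 0.33, SE 0.156), and smooth muscle and renin cells had 98.7 to 158 CPM. Parietal cells and podocytes had at most 17.3 and 1.87 CPM. In the Dlk1 group Tbx3 was 247 and 321 CPM in young and 104 and 80.1 CPM in aged libraries, from 26, 32, 34 and 9 UMIs, and this group of 164 cells was not tested on its own.

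Nr2f2 (ENSMUSG00000030551) lies on chromosome 7 from 70351944 to 70366735 on the minus strand, with up to 3 exons. Its level was highest in parietal epithelial cells, the lining of the capsule around the tuft, with 599 and 690.0 CPM in young and 237 and 344 CPM in aged libraries (log2 fold change -1.13, SE 0.237). Both aged libraries lay below both young ones, and none of the 5795 genes tested in parietal cells passed the threshold in edgeR, with 657 at an unadjusted p under 0.05 and 49 passing in DESeq2. Nr2f2 itself passed there under 4 of 14 alternatives, with DESeq2, with no filter on low counts, without aged replicate 2 and with the replicate number as a block, and its lowest and highest values were -1.35 and -0.86. Smooth muscle and renin cells had 269.8 to 299.6 CPM, and mesangial cells had 304 and 367 CPM against 151 and 279.8 CPM (log2 fold change -0.52, SE 0.226). In podocytes Nr2f2 was 96.0 and 129 CPM in young and 82.3 and 62.3 CPM in aged libraries. Its log2 fold change there was -0.56 (SE 0.149), and it was the 1 member past the threshold in podocytes, where 6.03% of 10864 genes were (2.05% lower in aged libraries). That call was lost under 7 of 14 alternatives, with DESeq2 and without young replicate 2 or either aged library among them, over a range of -0.76 to -0.39. Endothelium had 23.8 and 30.1 CPM in young and 23.4 and 28.5 CPM in aged libraries (log2 fold change 0.08, SE 0.168), so the groups overlapped.

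**Figure D3:**
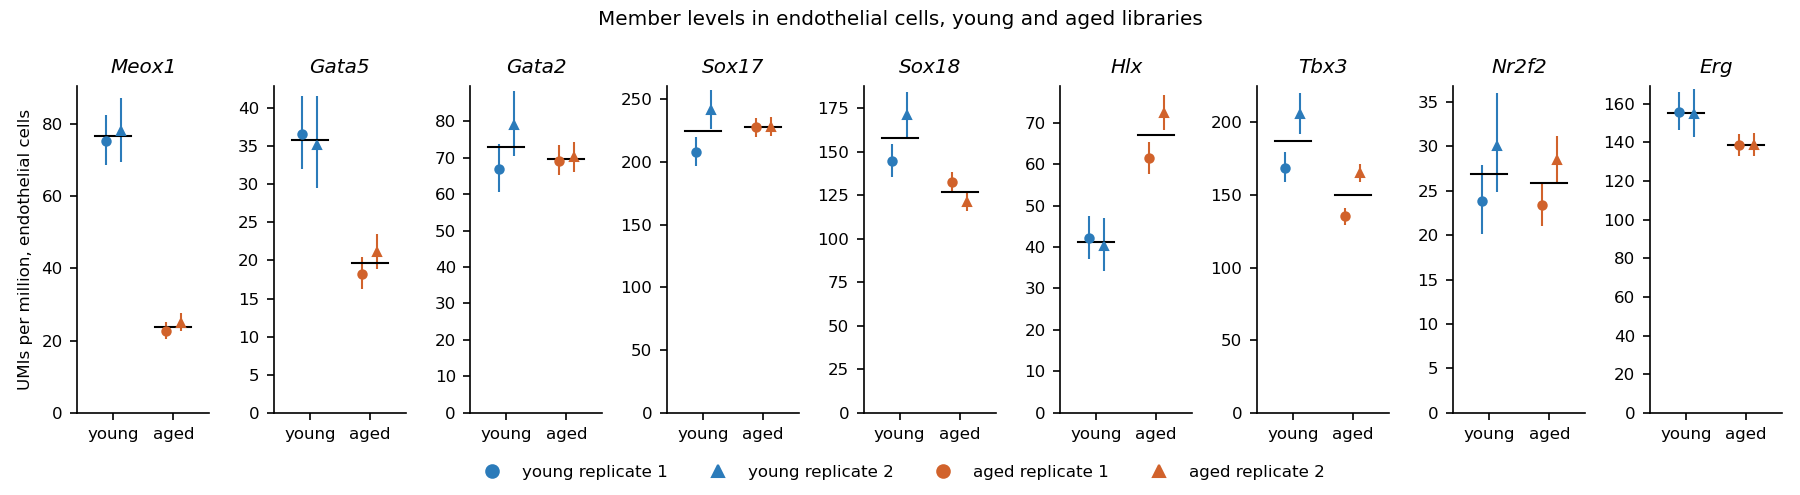
Level of 9 members in endothelial cells (vertical axis, CPM, from 0) in the young and aged libraries, with 1 point per library, its 95% interval of counting error as a bar and the group mean as a black line. Meox1 and Gata5 are lower and Hlx is higher in both aged libraries, and the bars do not meet between the age groups.

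Over all endothelial cells 9 of the 10 members passed the filter on low counts and 3 of them passed the threshold, a Benjamini-Hochberg adjusted p under 0.05 in edgeR's quasi-likelihood test. Meox1 and Gata5 fell and Hlx rose. Among all 13123 genes tested 6.55% passed, 562 higher and 297 lower in aged libraries (4.28% and 2.26%). The members were listed with this comparison known. Their calls, here and under the settings below, are therefore a description, and nothing is read from their count. In glomerular capillary cells the same 3 of 9 passed, against 5.14% of 12437 genes (3.48% higher and 1.66% lower in aged libraries). In the Olfm2 group Meox1 and Sox17 passed, of 7 tested, against 2.75% of 7097 genes (1.45% higher and 1.3% lower). In the Tspan8 group none of 8 passed, against 6.33% of 7712 genes (4.08% higher and 2.24% lower). In mesangial cells none of 6 passed, against 5.53% of 9806 genes (3.56% higher and 1.97% lower). DESeq2 also called none there or in the Tspan8 group. Calls appeared under other settings: Erg and Nr2f2 in mesangial cells without aged replicate 2, Sox18 in the Olfm2 group without young replicate 1, 6 members in mesangial cells with mixed cells kept, and Gata5 in the Tspan8 group at a limit of 10% mitochondrial UMIs. The endothelial call of Meox1 held under all 15 alternatives, from -1.63 to -1.49 on the log2 scale. Without young replicate 2, the library that stood apart, Meox1 alone of the 9 passed. Gata5 then had a log2 fold change of -0.82 and Hlx of 0.74, close to their values with all libraries. Gata5 also missed the threshold without young replicate 1 (-0.66) and without aged replicate 1 (-0.65). With no filter on low counts Gata5 (-0.72) and Hlx (0.84) both missed it, when 9 genes passed in all. In capillary cells the call of Gata5 was lost without aged replicate 1 and with no filter on low counts, over a range of -0.93 to -0.69, and those of Meox1 and Hlx held under 14 of 14 alternatives. Sums over cells cannot tell fewer expressing cells from less RNA per cell. The shares of endothelial cells given above for Meox1 and Hlx moved with the levels.

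**Figure D4:**
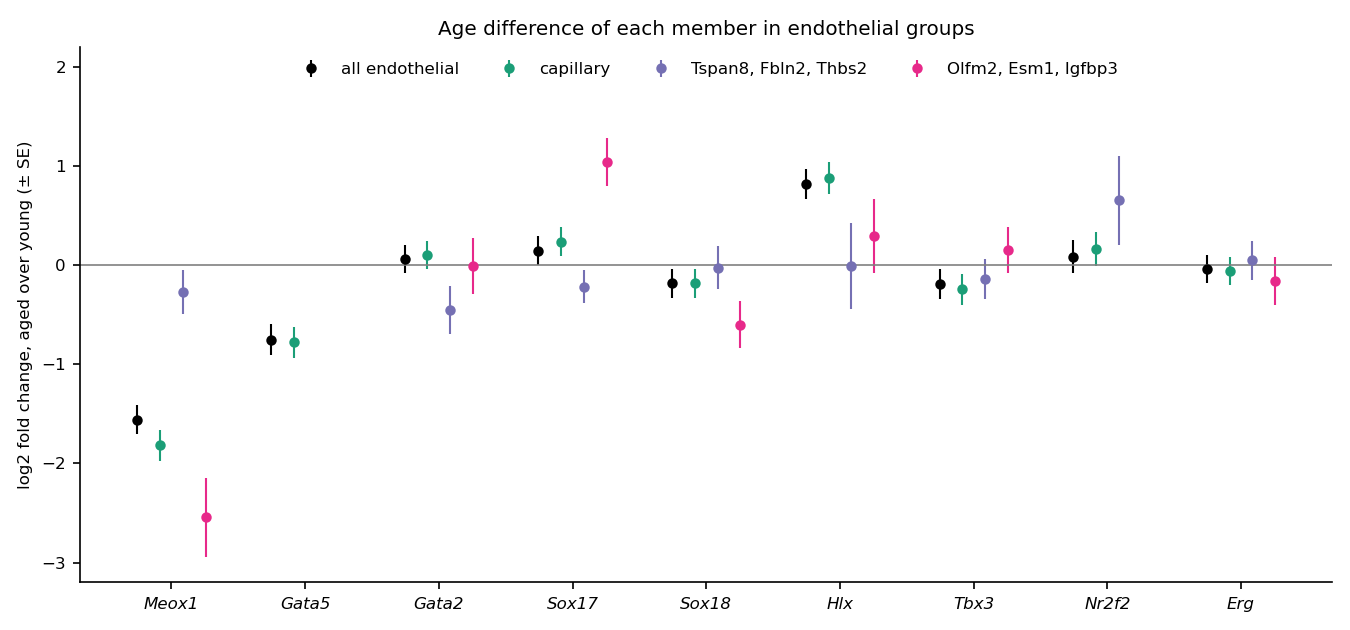
Log2 fold change of aged over young (vertical axis, point and SE) for 9 members (horizontal axis) in all endothelial cells and in 3 endothelial groups, where the gene passed the filter on low counts. Meox1 is at -1.82 in capillary cells and -2.54 in the Olfm2 group but at -0.27 in the Tspan8 group, and Sox17 is at 1.04 in the Olfm2 group.

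Markers of activated endothelium moved in the same comparison as the members. The list of 7 genes for this state summed to 526 and 573 CPM in young and 1025 and 1283 CPM in aged endothelial cells. Of 10 genes for adhesion and inflammation 9 were tested and 8 rose, with a median log2 fold change of 1.87 against -0.00736 over all genes. This list and those below were chosen with earlier results of these data known. Their counts and medians, and the adjusted p of their genes, are therefore a description. Il6, an inflammatory cytokine, was 27.3 and 26.0 CPM in young and 134 and 165 CPM in aged libraries (log2 fold change 2.60, SE 0.164, edgeR adjusted p = 1.54e-10). Lrg1, a secreted glycoprotein of inflamed vessels, was at 1.87 (adjusted p = 1.81e-08). Cxcl2, a chemokine for neutrophils, and Vcam1, an adhesion molecule for leukocytes, rose by 1.96 and 2.23 (adjusted p = 1.81e-08 and 1.63e-07). Of 12 early response genes known to respond to tissue dissociation, Dusp1, a phosphatase of MAP kinases, alone rose (1.17, adjusted p = 0.000123), and 11 did not pass. The list had a median log2 fold change of 0.38 and summed to 19627 and 20165 CPM in young and 21070 and 23822 CPM in aged libraries, higher in both of the latter. The part of activation or of dissociation in the members' values was not tested.

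Of 54 other transcription factors known in endothelium 48 were tested, 3 rose and 2 fell, and 43 did not pass, with a median log2 fold change of -0.10. The forkhead genes Foxc1 and Foxc2, known from vessel and kidney development, were at 12.3 and 15.8 against 21.0 and 26.5 CPM (0.90, adjusted p = 0.00336) and at 4.47 and 4.33 against 11.7 and 7.50 CPM (1.23, adjusted p = 0.00661). Irx3, an Iroquois homeobox gene, rose by 0.66 (adjusted p = 0.0349). Tcf15, the helix-loop-helix partner known with Meox2 in fatty acid uptake, fell by 0.54 (adjusted p = 0.0273), and Prox1, the factor of lymphatic identity, fell by 0.74 (adjusted p = 0.0389).

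Erg itself was level in the fit, and genes known as its targets were read beside it. Of 18 such genes 17 were tested, 4 rose, 2 fell and 11 did not pass, with a median of 0.14. Tek, the receptor for angiopoietins, was 323 and 356 CPM in young and 175 and 193 CPM in aged libraries (-0.76, SE 0.150, edgeR adjusted p = 0.00178). Ehd3, a membrane trafficking gene and capillary marker, fell by 0.64 (adjusted p = 0.0259). Vwf, the von Willebrand clotting factor, rose by 2.40 from about 1 CPM (1.28 and 1.02 against 6.70 and 4.87 CPM, adjusted p = 0.000233). Apln, a peptide ligand of vessels, rose by 1.59 (adjusted p = 0.00923), Thbd, the anticoagulant thrombomodulin, by 0.63 (adjusted p = 0.0109) and Ednrb, an endothelin receptor, by 0.61 (adjusted p = 0.0151). The junction gene Cdh5 had 862 and 909 CPM against 1010 and 966 CPM and did not pass (0.28, adjusted p = 0.389).

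Arterial and venous genes were listed because Sox17 and Nr2f2 are known for these identities. Of 14 arterial genes, all tested, none rose, 13 did not pass and Efnb2, the ligand that marks arteries, fell (359 and 471 against 223 and 280.2 CPM, -0.59, SE 0.164, adjusted p = 0.0276). Of 8 venous genes 6 were tested and 3 rose. Those were Vwf, Plvap, a component of fenestral diaphragms (21.1 and 22.2 against 66.0 and 36.3 CPM, 1.37, adjusted p = 0.000123), and Nrp2, a co-receptor for semaphorins and VEGF (0.63, adjusted p = 0.00543). The median was -0.06 for the arterial and 0.40 for the venous list. Nr2f2 in endothelium and Sox17 over all endothelium did not pass beside them.

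With 1 library fewer, fewer of these genes passed. Of the 23 genes of the lists that passed, 10 also passed without young replicate 1, 7 without young replicate 2, 14 without aged replicate 1 and 17 without aged replicate 2. Adjusted p of those lost were 0.0536 to 0.494, 0.0544 to 0.328, 0.0642 to 0.55 and 0.0691 to 0.407, and none changed direction. Il6, Cxcl2, Lrg1, Vcam1, Selp, Cxcl1 and Dusp1 passed in each of the 4. The 5 other transcription factors were among those lost without either young library.

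**Figure D5:**
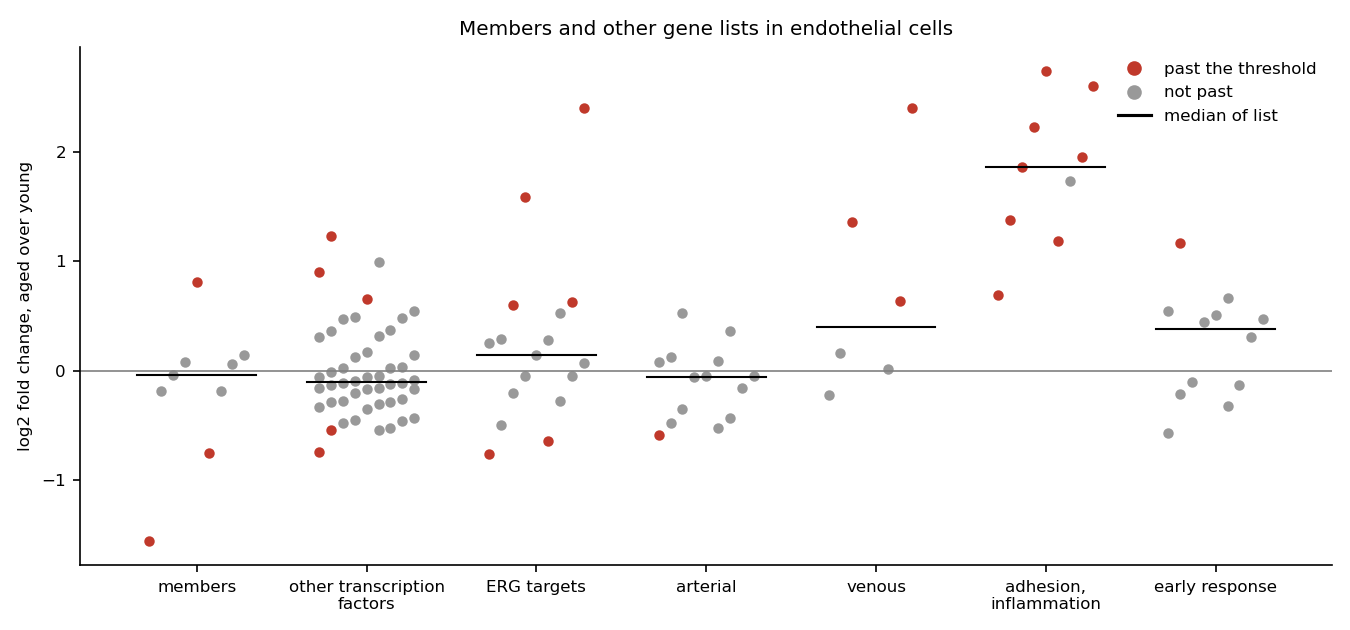
Log2 fold change of aged over young in endothelial cells (vertical axis) for the 9 members tested and for the genes of 6 lists, with 1 point per gene, red where it passed the threshold and grey where it did not, and the median of each list as a black line. The adhesion and inflammation list has a median of 1.87, and the members and the other transcription factors lie around 0 with Meox1 the lowest point of all those shown.

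Genes whose level followed each member most closely were sought over 49 sums of a cell group and library with at least 20 cells, among 7455 genes with at least 10 CPM in endothelium. The measure was Pearson's r of log2(CPM + 1), given as a description, since the sums share libraries and the endothelial sums contain the sub-cluster sums. Meox1 was nearest to Unc45b (r = 0.889), Mest (0.877) and Ptpru (0.874). Gata5 was nearest to Nos2 (0.893), Ackr2 (0.858) and Gchfr (0.854), and Gata2 to Tal1 (0.818), Tgoln1 (0.814) and Rasip1 (0.813). Sox17 was nearest to Adgrf5 (0.945), Adgrl4 (0.942) and Ramp2 (0.942), and Sox18 to Bcl6b (0.970), Adgrl4 (0.959) and Unc45b (0.948). Hlx was nearest to Dram1 (0.844), Rsad2 (0.811) and Fabp4 (0.805), and Erg to Alox12 (0.930), Hspa12b (0.921) and Palmd (0.919). For the members shared with other cells, the nearest genes were Ifi203-ps (0.936), Kank4 (0.925) and Tspan9 (0.923) for Tbx3 and Samd4 (0.947), Snhg18 (0.947) and Hspa12a (0.937) for Nr2f2.

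The order of levels over the 12 groups with at least 20 cells in every library was clear only where ranges did not meet. Sox17 in the Tspan8 group stood above every other of these groups, and the other endothelial groups overlapped in turn. Hlx in the Dlk1 group (at least 85.5 CPM) also stood above every other, with capillary cells next (at most 82.2 CPM). Meox1 in the endothelial groups overlapped from the Dlk1 group (mean 123 CPM) down to capillary cells (45.3 CPM). Its capillary range stood above that of mesangial cells (mean 6.92 CPM, at most 12.9), while that of the Olfm2 group, from 9.54 CPM, met it. Gata5 in capillary cells (33.2 ± 11.5 CPM, SD, n = 4) overlapped with the Dlk1 group (28.0 ± 12.2 CPM), and all endothelium stood above the Olfm2 group (8.55 ± 1.94 CPM). Nr2f2 in parietal (467 ± 212 CPM), smooth muscle (285 ± 12.6 CPM) and mesangial cells (275 ± 90.8 CPM) overlapped, and these stood above podocytes (92.3 ± 28.0 CPM), which stood above capillary cells (29.1 ± 2.89 CPM). Tbx3 in 5 groups, from the Dlk1 group to mesangial cells, overlapped.

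Some members overlap another annotated gene. Meox1, Gata5, Sox17, Tbx3 and Nr2f2 each have an antisense partner, and the sources used here do not state whether counting used the strand. Endothelial cells held 0 UMIs of the partner of Meox1, 0 to 9 a library of Gata5os and 40 to 166 of Tbx3os1.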

How the data were processed

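Per the labels' protocols, 8000 cells were aimed at per library on a 10x Genomics 3′ assay, and the files hold 5532, 9649, 10621 and 7521 barcodes. The deposited values are UMI counts per gene and cell, which the authors made with Cell Ranger. The extract protocol gives version 3.1.0, and the submitters' processing notes give 6.0.1, Partek and GRCm38. Library totals were 18457791 to 42046542 UMIs. Every kept barcode had at least 500 genes and at most 20% mitochondrial UMIs. Scrublet marked 134 barcodes by its own threshold, so the highest scores were removed instead, at 0.8% for each 1000 barcodes (1876 in all). Cells that carried another type's markers were left out as mixed. Clusters (scanpy 1.11.5, leidenalg 0.10.2, members left out) were named from marker lists, with naming thresholds set after the data were seen. Counts were summed per library and group and tested with edgeR 4.0.16 (quasi-likelihood, TMM, filterByExpr, Benjamini-Hochberg threshold 0.05) in R 4.3.3, with DESeq2 1.42.0 as an alternative. The script was tested on simulated data. Replicates differed beyond sampling noise (chi-square over degrees of freedom 5.79 in young and 15.8 in aged libraries).

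The members and gene lists were chosen with earlier results of these data known. All members are named. From each list up to 4 genes per direction are named, by smallest p, where the 2 ages did not overlap. Dusp1, Cdh5, Selp and Cxcl1 are named outside that rule, after their values were seen. With 2 libraries a group, an exact permutation test cannot go below 0.333. The planned test of age against arteriolar cells was not run, since the young libraries had 12 and 15 of them, and the Tspan8 group was used in its place after the data were seen. Levels carry intervals for counting error only.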

Additional observations from a re-analysis of the deposited data

Results flagged for a closer look

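The age effect on Meox1 differed between 2 endothelial groups in a fit of the difference itself. The log2 fold change of aged over young in the Tspan8 group was 1.58 higher than in glomerular capillary cells (SE 0.221), with levels of 94.6 and 103 against 75.1 and 76.2 CPM in the Tspan8 group and 73.7 and 69.9 against 17.3 and 20.5 CPM in capillary cells. The difference stayed past the threshold without each library in turn, from 1.47 to 1.72. The Tspan8 group was chosen for this fit after the data were seen, and Meox1 was listed with its age difference known. The value and its calls are therefore a description.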

How the results depend on the processing

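Counts of genes past the threshold depended on the setting, as did some of the members' calls given above. Without each library in turn the count was 193 to 727 in endothelium (859 with all), 310 to 864 in podocytes (655), 140 to 1492 in mesangial cells (542), 0 to 200 in parietal cells (0), 476 to 741 in capillary cells (639), 256 to 276 in the Tspan8 group (488), 94 to 274 in the Olfm2 group (195) and 90 to 143 for the difference between groups (153). DESeq2 gave 474, 247, 323, 49, 393, 90 and 83 in the first 7 of these. Without a filter on low counts there were 9 in endothelium, 1046 in mesangial, 317 in parietal and 264 in capillary cells, and 21 of the 23 listed genes then lost their call, with adjusted p of 0.0546 to 0.48. Thinned cells gave 516, 197, 122, 36, 337 and 115 in endothelium, podocytes, mesangial, parietal and capillary cells and the Tspan8 group. Resolution 2 gave 260 in podocytes and 39 in the Olfm2 group. With mixed cells kept there were 1571 in mesangial and 10 in parietal cells, 277 in the Tspan8 and 65 in the Olfm2 group. With doublets kept there were 3 in parietal cells and 51 in the Olfm2 group. A limit of 10% mitochondrial UMIs gave 24 in parietal cells and 322 in the Tspan8 group. The cause of these shifts was not tested.

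The replicate block gave 1298 genes in endothelium, 1231 in mesangial, 256 in parietal and 1240 in capillary cells, and Erg and Nr2f2 passed in mesangial and Nr2f2 in parietal cells. The replicate numbers did not pair the libraries by any label, and deviations of same-numbered libraries correlated at r = 0.0787 over 13123 genes.

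Over all endothelium signs turned for members near 0, and in other groups also for members further from 0. With mixed cells kept, Sox18 in the Olfm2 group went from -0.60 to 0.316 and Gata2 in mesangial cells from 0.65 to -0.257. Sox17 in the Tspan8 group went from -0.22 to 0.0602 at clustering resolution 2. Without each library in turn, Erg in endothelium was at -0.0958 to 0.0249 on the log2 scale, above 0 without young replicate 1. Nr2f2 was at -0.0611 to 0.224, below 0 without young replicate 1 (-0.0310) and without aged replicate 2. The arteriolar minus capillary difference of Erg was at -0.167 to 0.158, above 0 without young replicate 1 (0.0427) and without aged replicate 1. That of Meox1 was 0.244 by UMI gates. Low UMI counts limit the arteriolar group, where Meox1 and Gata5 each rest on 1 UMI.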

Other observations

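Gata2 was also found outside endothelium in a small cluster of 88 neutrophil-like cells, 0 and 5 in young and 61 and 22 in aged libraries. It held 55 Gata2 UMIs, of which 50 were in cells with a UMI of Mcpt8, a protease gene known from basophils. Gata2 was seen in 13 of these cells, Mcpt8 in 13 and both in 10, and none of the Mcpt8 cells had a UMI of S100a8, a neutrophil marker.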
